A study of Mus musculus with 14 samples.

Results

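Wildtype mouse clones obtained during reprogramming were compared with the wildtype tail fibroblasts from which such cultures start. The comparison used the 3 wildtype clone libraries and the 1 wildtype fibroblast library measured by reduced representation bisulfite sequencing (RRBS), 4 of 14 libraries in the series. It was made at the 1462139 CpG positions listed in all 4 libraries, of 2784620 listed in any of them. The clones were wildtype tail cells reprogrammed with Oct4, Sox2, Klf4 and cMyc, picked at week 2 and collected after 3 weeks. The fibroblasts were untreated wildtype tail fibroblasts. The series also holds AID-null cells and cultures taken whole after 3 weeks, and of these only the wildtype 3-week culture is set beside the results, with 1 RRBS and 1 RNA library. Whether separate animals or cultures gave rise to the clones is not in the labels. The tests therefore measure the spread between these 3 clones, which may be partly technical. The fibroblast side had 1 library and was assumed to vary as a clone does.

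Reprogramming returns a differentiated cell to a pluripotent state. DNA methylation at CpG dinucleotides is one of the marks that distinguish the starting cell from a pluripotent one: methylated promoters are usually silent, and the CpG-dense promoters of widely used genes are usually unmethylated in all cells. Genes of the germ line and the pluripotency factor gene Pou5f1 (Oct4) are known examples of promoters that are methylated in somatic cells, and in female mammals the promoters on the inactive X chromosome are methylated as well.

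RRBS covers fragments cut at CpG-containing restriction sites, which enriches for CpG-rich DNA. The level of a position is the percent of its reads that stayed methylated. Total coverage was 279665786 to 287780746 in the clones and 231642626 in the fibroblasts, with a median of 122 to 125 reads per listed position in the clones and 113 in the fibroblasts. The 95% Wilson interval of a library's overall level therefore reached at most 0.00623 points to each side, and it covers counting error only, since the reads carry no molecular identifiers here. In a library of many cells, a lower level in every cell and a smaller share of cells with the mark cannot be told apart. RNA of the clones was not analysed here. In the wildtype RNA libraries, given as FPKM (fragments scaled to transcript length and to library size), the fibroblast collagen gene Col1a1 read 159 FPKM in the 3-week culture and 26383 FPKM in fibroblasts. Col1a2, also a collagen gene, read 187 FPKM in the culture and 25482 FPKM in fibroblasts. The fibroblast markers Thy1, Twist1 and Prrx1 differed less. They read 506, 156 and 241 FPKM in the culture and 1907, 352 and 625 FPKM in fibroblasts. The macrophage marker genes Ptprc, Tyrobp and Csf1r summed to 2.42 FPKM in the 3-week culture and 119 FPKM in fibroblasts, and the part of such cells in the methylation levels was not tested.

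The promoter sequences below show where the measured CpG sites lie for genes on which the comparison turned. Mael and Ddx4 act in the germ line, Jade1 had the largest difference among promoters, Kcne4 was among the largest rises, and Hprt and Kdm6a lie on X with and without methylation in fibroblasts. Each is the 250 bases before the annotated start in RefSeq (GRCm38.p6 sequence table), 5′ to 3′ on the gene's strand, with the CpG sites listed in all 4 libraries in capitals. The position on the files' build, mm9, was found by matching the spacing of CpG sites to the files' own positions.
Mael, chr1:168168876-168169125, minus strand: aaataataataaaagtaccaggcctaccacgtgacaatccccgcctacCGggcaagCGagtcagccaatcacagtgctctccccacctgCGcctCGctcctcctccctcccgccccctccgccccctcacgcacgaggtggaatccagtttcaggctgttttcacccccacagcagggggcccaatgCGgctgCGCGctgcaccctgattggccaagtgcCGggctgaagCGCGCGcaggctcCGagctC
Ddx4, chr13:113442519-113442768, minus strand: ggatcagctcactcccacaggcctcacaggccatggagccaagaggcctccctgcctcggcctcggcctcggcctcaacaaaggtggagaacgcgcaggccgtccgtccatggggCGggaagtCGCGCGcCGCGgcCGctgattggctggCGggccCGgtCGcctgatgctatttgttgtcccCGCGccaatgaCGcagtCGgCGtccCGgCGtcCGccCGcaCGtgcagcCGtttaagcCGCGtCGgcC
Jade1, chr3:41359406-41359655, plus strand: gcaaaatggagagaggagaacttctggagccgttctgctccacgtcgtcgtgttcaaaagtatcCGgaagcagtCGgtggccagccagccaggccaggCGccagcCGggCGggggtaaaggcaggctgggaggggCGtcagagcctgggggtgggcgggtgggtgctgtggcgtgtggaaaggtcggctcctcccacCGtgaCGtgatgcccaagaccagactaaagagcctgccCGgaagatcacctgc
Kcne4, chr1:78813236-78813485, plus strand: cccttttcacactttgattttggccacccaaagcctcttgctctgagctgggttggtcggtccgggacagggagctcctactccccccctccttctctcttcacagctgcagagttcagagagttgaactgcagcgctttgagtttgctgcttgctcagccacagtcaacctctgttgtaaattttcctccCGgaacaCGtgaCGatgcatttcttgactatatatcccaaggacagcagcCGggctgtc
Hprt, chrX:50341005-50341254, plus strand: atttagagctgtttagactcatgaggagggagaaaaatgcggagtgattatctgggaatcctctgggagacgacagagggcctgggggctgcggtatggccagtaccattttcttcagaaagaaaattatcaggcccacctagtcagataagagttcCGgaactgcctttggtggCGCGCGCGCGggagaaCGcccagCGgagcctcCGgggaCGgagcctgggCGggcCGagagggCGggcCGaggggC
Kdm6a, chrX:17739451-17739700, plus strand: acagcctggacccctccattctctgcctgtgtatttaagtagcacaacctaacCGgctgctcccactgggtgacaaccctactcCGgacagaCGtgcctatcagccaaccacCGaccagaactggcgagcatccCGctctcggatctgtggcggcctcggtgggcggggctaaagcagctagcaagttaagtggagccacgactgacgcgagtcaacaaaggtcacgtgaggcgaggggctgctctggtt
Of the CpG sites in these stretches, 12 of 18 were measured for Mael, 24 of 31 for Ddx4, 9 of 16 for Jade1, 4 of 7 for Kcne4, 14 of 17 for Hprt and 5 of 15 for Kdm6a.

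The mean methylation level was lower in the clones, though not in every class of tile. Averaged over 120062 tiles of 1000 bp, it was 44.96%, 46.7% and 47.1% in clones 1, 2 and 3, or 46.3% ± 1.15 (SD, n = 3), against 57.0% in the fibroblast library. The 3 clones lay within 2.18 points of each other, and the difference of -10.8 points was larger than their spread. Over single positions the clones averaged 26.2% ± 0.683 and the fibroblasts 33.9%.

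The shape of the distribution differed more than its mean. Positions at 80% or more were fewer in the clones: they made up 8.41%, 10.6% and 9.59% of positions in clones 1, 2 and 3, against 25.4% in fibroblasts. Intermediate levels of 20% to under 80% held 30.8%, 28.8% and 30.8% of positions in the clones and 17.2% in fibroblasts. Positions under 10% made up 56.2% to 57.3% in the clones and 54.8% in fibroblasts. In all 3 clones fewer positions lay at the top of the scale, and more between the extremes, than in fibroblasts.

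**Figure D1:**
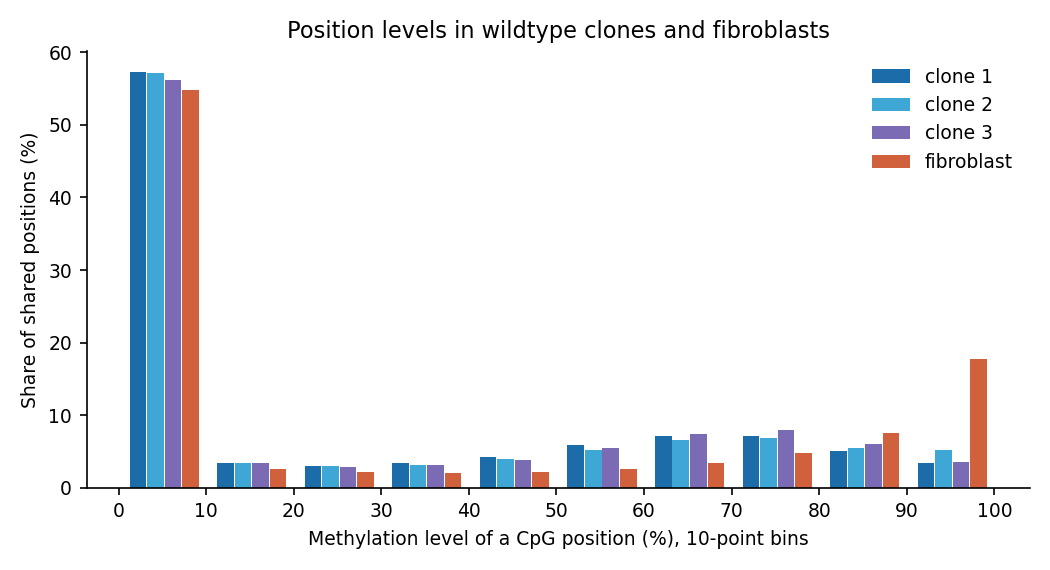
Share of the shared CpG positions (y axis, %) in each 10-point bin of methylation level (x axis, %), with 1 bar per library: clones 1 to 3 and the fibroblasts. The bin from 90% to 100% holds 3.39% to 5.20% of positions in the clones and 17.8% in the fibroblasts.

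Tile by tile, 20288 of 120062 tiles (16.9%) were called lower in the clones and 4895 (4.08%) higher. A call needed a Benjamini-Hochberg adjusted p under 0.05 in a quasi-binomial model moderated with limma and a difference of at least 25 points. Tiles called lower had medians of 42.7%, 44.3% and 45.9% in clones 1, 2 and 3 and 88.4% in fibroblasts. Tiles called higher had medians of 63.1%, 64.9% and 65.2% in the clones and 17.6% in fibroblasts. The clone mean lay at 20% to under 80% in 79.8% of the tiles called lower and in 93.9% of those called higher. It was under 10% in 2198 of the tiles called lower, and 80% or more in 301 of those called higher. The 25-point rule keeps a tile called lower from the top of the scale and a tile called higher from the bottom, so these shares are partly set by it. Over all tiles, 22.1% to 23.0% were under 10% in a clone and 7.58% to 11.1% were at 80% or more.

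The clones resembled each other more than they resembled the fibroblasts. The mean absolute difference per tile was 7.91, 7.203 and 7.35 points for the pairs 1 and 2, 1 and 3, and 2 and 3, against 19.3, 18.6 and 18 points between clones 1, 2 and 3 and the fibroblasts. A difference of at least 25 points occurred in 4.12% to 5.51% of tiles between 2 clones and in 27.5% to 31.4% between a clone and the fibroblasts. Of the tiles called lower, 15695 (77.4%) were at least 25 points lower in each of the 3 clones, and of those called higher 4134 (84.5%) were at least 25 points higher in each. Fisher's exact test of each clone against the fibroblast library, which compares libraries only, called 31282, 27640 and 25800 tiles lower (26.1%, 23% and 21.5%) and 6475, 7244 and 7231 higher (5.39%, 6.03% and 6.02%) in clones 1, 2 and 3. Of these, 17194 were lower in all 3 clones and 4690 were higher in all 3.

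The share called lower differed with the CpG density of a tile, counted as its number of measured positions, which also depends on RRBS coverage. The classes below were formed on the fibroblast level, which is also one side of the difference, so a class at the top of the scale could hardly rise and these shares are descriptions. Among autosomal tiles at 80% or more in fibroblasts, the mean was 63.4%, 65.7% and 66.2% in clones 1, 2 and 3 and 90.2% in fibroblasts, and 29.7% were called lower. The share called lower in that class was 27.04% in tiles with 3 to 9 positions, 51.9% with 10 to 29 positions and 87.9% with 30 or more. Tiles with more positions also pooled more reads. The library with the fewest reads in a tile had a median of 402, 1535 and 4778 reads in the same order. How far depth set these shares was not tested. The 124 densest of these tiles averaged 34.5%, 37.1% and 38.3% in the clones and 89.9% in fibroblasts. Dense tiles at 60% to under 80% were called lower in 90.4% of cases, at 17.2%, 18.2% and 18.8% in the clones and 71.3% in fibroblasts. A methylated CpG-dense tile thus had a lower level in the clones than a methylated sparse tile did, although both started alike in fibroblasts.

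Tiles with 3 to 9 positions made up 4346 of the 4895 tiles called higher. They also made up 89766 of all 120062 tiles and 15758 of the 20288 called lower. Among autosomal tiles at 10% to under 40% in fibroblasts, 27.1% were called higher, at a mean of 37.6%, 39.1% and 39.8% in the clones and 24.8% in fibroblasts. The share was 30.3% with 3 to 9 positions, 17.0% with 10 to 29 positions and 0.302% with 30 or more. In tiles under 10% in fibroblasts it was 16.6%, 2.01% and 0.040% in the same order of density. The 9990 densest of these tiles averaged 0.967%, 1.08% and 1.13% in the clones and 0.728% in fibroblasts.

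**Figure D2:**
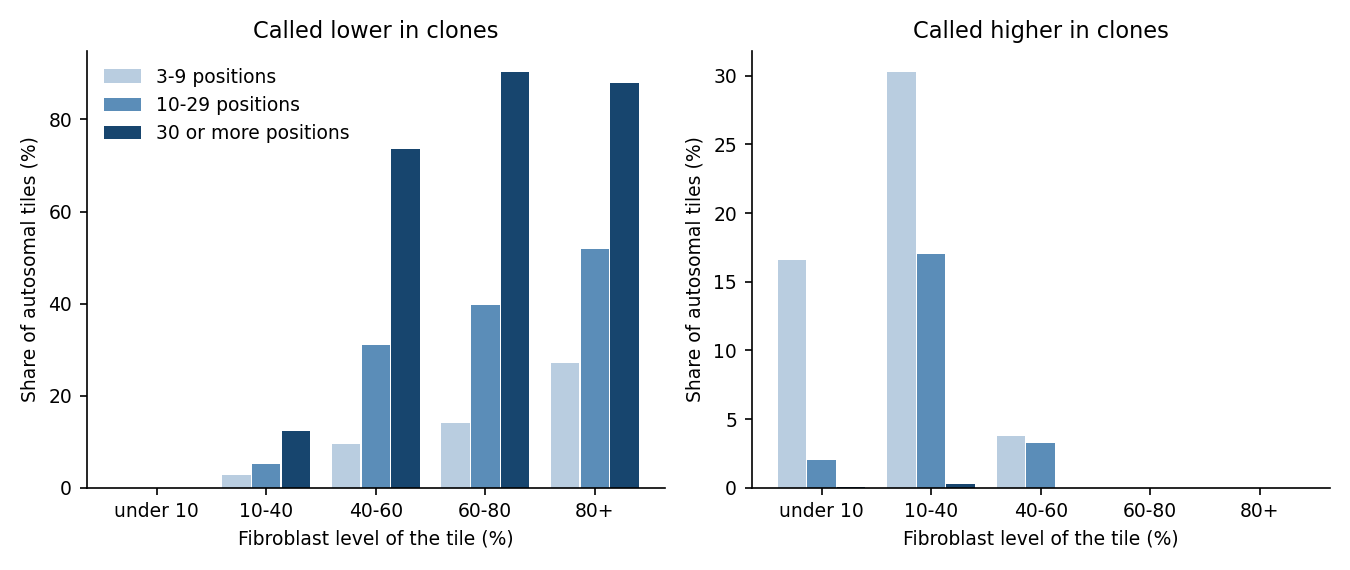
Share of autosomal tiles (y axis, %) called lower (left) and higher (right) in the clones, by fibroblast level (x axis, %) and number of measured positions (shade). The share called lower in the class at 80% or more runs through 27.04%, 51.9% and 87.9% with density, and the share called higher in the class from 10% to 40% through 30.3%, 17.0% and 0.302%.

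The 10 tiles with the largest falls, among those with at least 10 positions and at least 25 points lower in each clone, read 0.0721% to 10.9% in the clones and 91.8% to 98.0% in fibroblasts (adjusted p 0.000327 to 0.000416). The first, chr3:153568001-153569000 (mm9, 13 positions), had 3.14%, 0.586% and 4.90% in clones 1, 2 and 3 and 97.6% in fibroblasts, and lies 6930 bp from the placed start of Rabggtb, a subunit gene of the Rab geranylgeranyl transferase. The next, chr3:41359001-41360000, covers the start of Jade1, described with the promoters. The tile with most positions was chr5:93371001-93372000, where 108 positions averaged 7.67%, 7.85% and 8.02% in the clones and 96.1% in fibroblasts. At chr11:69493001-69494000, 1472 bp from the start of Senp3, a SUMO protease gene, the clones had 2.36%, 2.73% and 2.34% and the fibroblasts 94.7%. The rule that picked these tiles favours clones that lie close together and far from the fibroblast library, so neither trait is a separate result.

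The 10 largest rises read 66.8% to 86.2% in the clones and 1.66% to 14.7% in fibroblasts (adjusted p 0.000429 to 0.00427). At chr3:37835001-37836000 the clones had 78.4%, 86.2% and 82.4% and the fibroblasts 7.41%. At chr2:31195001-31196000, 25149 bp from the placed start of Hmcn2, a hemicentin gene, they had 83.3%, 70.4% and 79.5% against 3.75%. At chr12:113475001-113476000 they had 68.1%, 70.3% and 73.8% against 1.66%. None of the 10 overlapped a placed start. Only 11230 of 27025 genes had a placed start, and the share of all tiles that overlap one was not counted. The rises are therefore not shown to lie away from promoters.

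Joining called tiles of the same direction that start within 2000 bp gave 17670 stretches called lower, 87.9% of them a single tile, and 4646 called higher, 95.1% a single tile. RRBS covers only part of the genome, and how many called tiles had another tested tile in reach was not counted. These shares therefore do not show that the differences were isolated. The longest was 10000 bp at chr15:76002001-76012000, where 8 called tiles averaged 39.7%, 39.5% and 43.3% in clones 1, 2 and 3 and 96.6% in fibroblasts. A stretch of 8000 bp at chr9:114417001-114425000, 48487 bp from the start of Trim71, an RNA-binding ubiquitin ligase gene of stem cells, averaged 31.9%, 38.4% and 37.2% in the clones and 88.0% in fibroblasts. The others among the 5 longest were chr4:141027001-141036000 at 37.7%, 40.3% and 43.0% against 88.7%, chr5:109979001-109986000 at 14.6%, 14.4% and 14.1% against 86.6%, and chr2:168830001-168837000 at 14.4%, 15.04% and 15.6% against 77.7%. The longest stretch called higher, 6000 bp at chr8:123598001-123604000, lies 3010 bp from the start of Fendrr, a long noncoding RNA gene of lateral mesoderm, and averaged 55.6%, 59.0% and 58.6% in the clones and 10.4% in fibroblasts. It was named after its values were seen.

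Promoters were taken as the 300 bases from 250 before to 50 after an annotated start. The sequence table names 27025 genes, of which 11230 were placed on the files' positions, and 9612 of these had at least 3 positions in all 4 libraries. Such promoters are CpG-dense, and 91.8% of them were under 10% in fibroblasts. In the clones 232 of 9612 (2.41%) were called lower and 14 (0.146%) higher, out of 361 at least 25 points lower and 65 at least 25 points higher. The calls in this window need all 3 clones: with any 1 clone left out the same model called 0 promoters at a smallest adjusted p of 0.154 to 0.165, although 327 to 336 were lower and 51 to 60 higher at an unadjusted p under 0.05, against 340 and 60 with all 3 clones. In those fits the differences of the 32 promoters named by rule moved by at most 2.64 points, or 8.14 points for Dazl, while those of the other measured list members moved by up to 18.4 points, at Meg3, and 14.6 points, at Taf7l, both without clone 3. Windows from 1000 bases before to 500 after the start, chosen after seeing the data, called 415 of 10816 lower (3.84%) and 53 higher (0.49%), and 363 to 402 lower and 43 to 54 higher without each clone in turn.

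**Figure D3:**
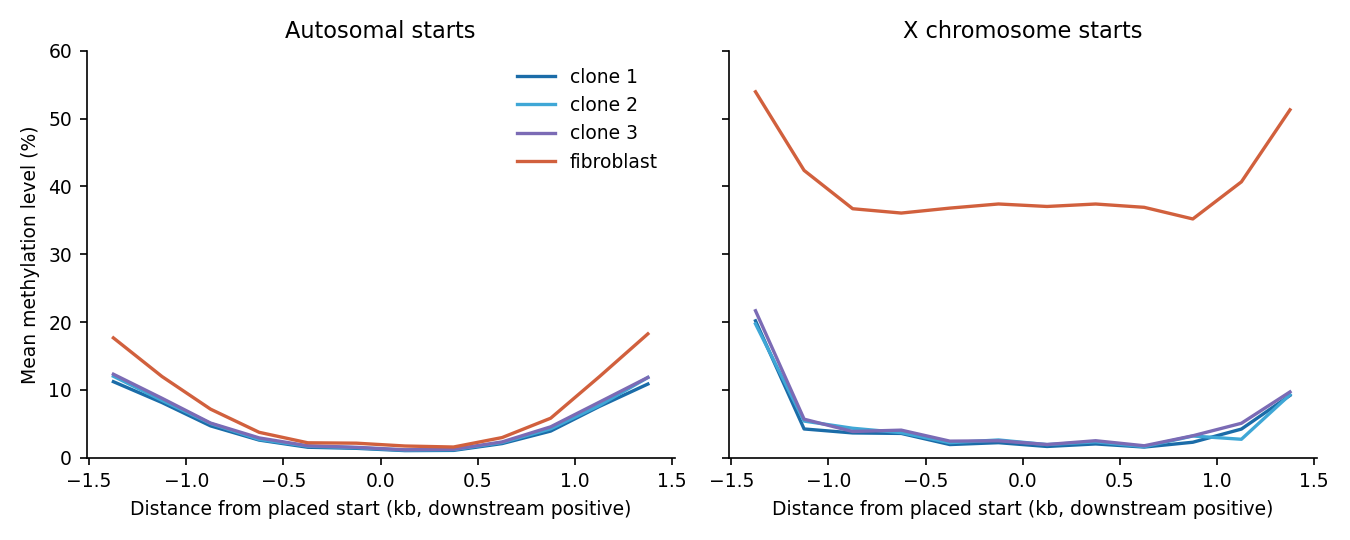
Mean methylation level (y axis, %) in 250-bp bins by distance from placed gene starts (x axis, kb), for autosomes and the X chromosome, in the 3 clones and the fibroblasts. Just upstream of autosomal starts clone 2 read 1.49% and the fibroblasts 2.16%, and just upstream of X starts clone 2 read 2.63% and the fibroblasts 37.4%.

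Pou5f1 encodes Oct4, the central transcription factor of pluripotent cells. Its promoter window read 0.323%, 0% and 0.366% in clones 1, 2 and 3 and 53.5% in fibroblasts, over 5 positions and 243 to 346 reads (difference -53.3 points, adjusted p 0.0139). The measured positions began 11 bases after the start, and 18 of them ran to 1313 bases downstream. Each of the 18 was between 27.3% and 87.5% in fibroblasts, while the highest value in any clone was 7.11% and 10 were at 0 in all 3 clones, with as few as 16 reads behind a value. Pou5f1 RNA read 2391 FPKM in the 3-week culture and 2.32 FPKM in fibroblasts. Sox2, its partner factor, was unmethylated throughout, at 0%, 0.0571% and 0.570% in the clones and 0.536% in fibroblasts, while its RNA read 738 FPKM in the 3-week culture and 7.61 FPKM in fibroblasts. Of the 3 core pluripotency genes listed, these 2 were measured and 1 was called lower, where 2.41% of all promoters were. RNA from delivered factor genes was not separated from that of the cells' own genes here.

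Of 45 secondary pluripotency genes, those that sustain or mark the pluripotent state, 10 were measured in the 300-base window. Of these 0 were called by the quasi-binomial model, where 2.41% of all promoters were called lower. All 10 were under 10% in the clones and the fibroblasts alike, as 91.8% of all promoters were in fibroblasts. The wider window measured 15, of which 2 were called lower, beside 3.84% of all such windows. Tdgf1, a Nodal co-receptor gene, had 0%, 0% and 0.335% in the clones and 58.9% in fibroblasts over 11 positions (adjusted p 0.000381). Tcl1, an Akt co-activator gene, had 5.71%, 8.47% and 14.2% in the clones and 90.6% in fibroblasts over 4 positions (adjusted p 0.000117). The RNA of both was higher in the 3-week culture, at 922 FPKM against 1 FPKM in fibroblasts for Tdgf1 and 247 FPKM against 0 FPKM for Tcl1. Where a clone read 0% in a promoter named here, its reads allowed a level of up to 0.133% at Gapdh and up to 2.5% at Epcam, the extremes, taking 3 reads as the limit of a count of 0. Nanog and Esrrb were not placed and are not analysed here.

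Promoters of germ line genes that somatic cells silence by methylation were lower in the clones and in most cases intermediate. Of 26 such genes 12 were measured, 4 were called lower (2.41% of all promoters were), 10 of 12 were at least 25 points lower on the clone mean, and 11 of 12 lay below the fibroblasts in each clone. The median difference was -47.3 points, beside 0.0400 points over all promoters. With the wider window 13 of 15 were called lower (3.84% of all such windows were), also without each clone in turn. The list was known to hold methylated promoters, so its direction is no independent evidence.

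Ddx4, an RNA helicase gene of germ cells, read 17.3%, 21.8% and 26.4% in clones 1, 2 and 3, 46.1% in the 3-week culture and 92.1% in fibroblasts, over 44 positions (adjusted p 0.0215). Mael, which acts in transposon silencing, read 19.9%, 26.02% and 24.8% in the clones, 39.5% in the 3-week culture and 93.2% in fibroblasts, over 24 positions (adjusted p 0.0147). In both genes every clone was below the 3-week culture and the fibroblasts. Hormad1, a meiotic chromosome axis gene, had 31.3%, 38.4% and 39.3% in the clones, 42.1% in the 3-week culture and 88.6% in fibroblasts (adjusted p 0.0314). Slc25a31, a testis ADP/ATP carrier gene, had 43.4%, 44.0% and 49.8% in the clones, 45.03% in the 3-week culture and 95.1% in fibroblasts (adjusted p 0.0223).

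Dazl, an RNA-binding protein gene of germ cells, was at 34.4%, 50.1% and 66.7% in clones 1, 2 and 3 and 98.7% in fibroblasts. It did not pass the test in this window (adjusted p 0.0989), and the clones were further apart than in Ddx4 or Mael. Rpl10l, a testis ribosomal protein gene, had 2.26%, 2.60% and 16.0% in the clones and 98.8% in fibroblasts and also missed the threshold (adjusted p 0.0684). In the wider window both passed, at -30.8 points for Dazl and -86.3 points for Rpl10l. Tdrkh was the listed gene not below the fibroblasts, with 7.46%, 7.82% and 18.7% in the clones and 0.0988% in fibroblasts (adjusted p 0.289). RNA of Mael read 15.1 FPKM in the 3-week culture and 0 FPKM in fibroblasts, that of Hormad1 32.95 FPKM in the culture and 0 FPKM in fibroblasts, and that of Ddx4 7.87 FPKM in the culture and 4.74 FPKM in fibroblasts.

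**Figure D4:**
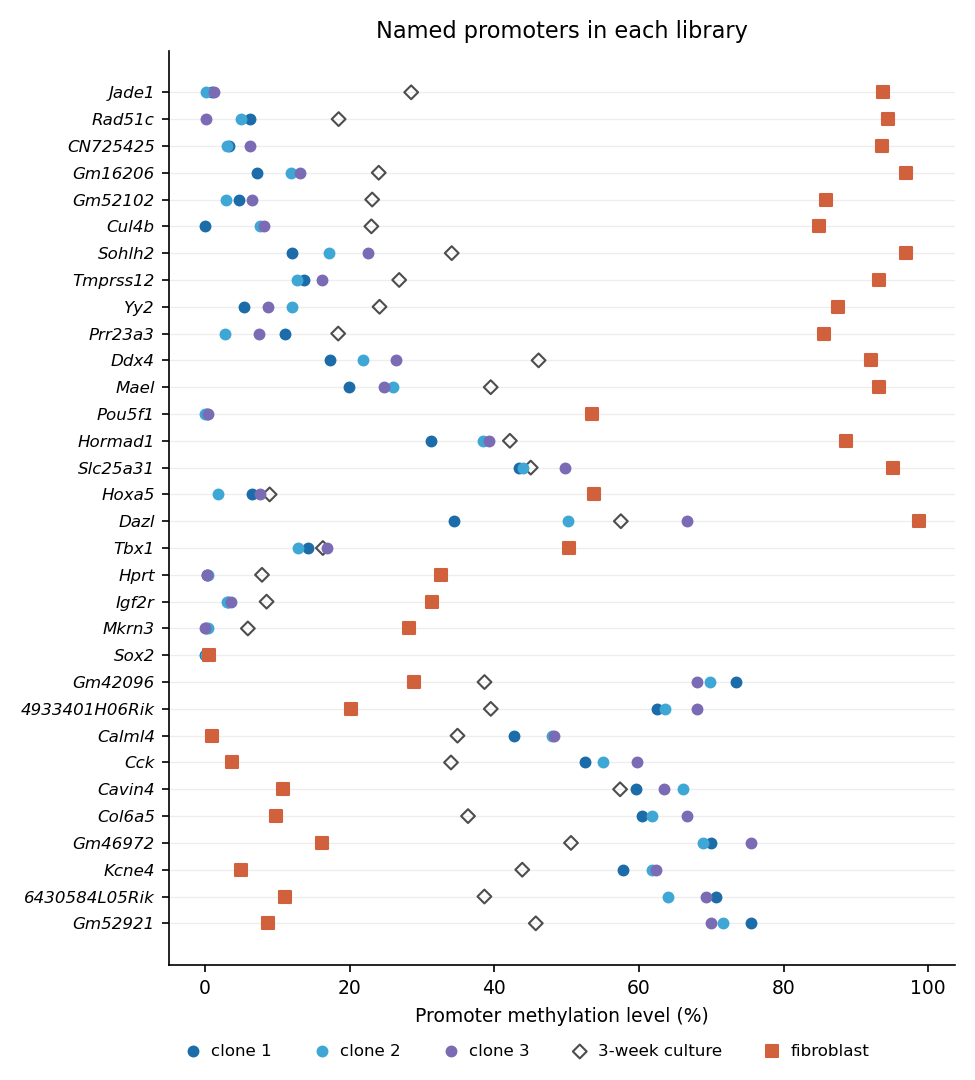
Promoter methylation level (x axis, %) of the named genes, from the largest fall at the top to the largest rise at the bottom, with a point for each clone, the wildtype 3-week culture and the fibroblasts. For Jade1 the clones read 0.0721% to 1.25%, the 3-week culture 28.5% and the fibroblasts 93.7%.

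Over all promoters the largest fall was at Jade1, a subunit gene of a histone acetyltransferase complex, with 0.965%, 0.0721% and 1.25% in clones 1, 2 and 3, 28.5% in the 3-week culture and 93.7% in fibroblasts (14 positions, adjusted p 0.0103). Its RNA, listed under the older symbol Phf17, read 388 FPKM in the 3-week culture and 31.1 FPKM in fibroblasts. The wider window kept for Jade1 was that of another of its starts, which differed by -0.0141 points, so the fall was measured at 1 of its starts. Rad51c, a homologous recombination gene, read 6.15%, 5.03% and 0.159% in the clones and 94.5% in fibroblasts, over only 3 positions (adjusted p 0.0269). Sohlh2, a transcription factor gene of early germ cells, read 12.0%, 17.1% and 22.5% in the clones and 96.9% in fibroblasts (adjusted p 0.0305). Tmprss12, a serine protease gene, read 13.6%, 12.8% and 16.1% in the clones and 93.1% in fibroblasts (adjusted p 0.0131). Yy2, a retrotransposed copy of Yy1 on X, read 5.36%, 12.1% and 8.67% in the clones and 87.5% in fibroblasts (adjusted p 0.0224). For each of these the 3-week culture lay between the clones and the fibroblasts, at 18.5% to 34.1%.

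The 14 promoters called higher were at intermediate levels in the clones. Kcne4, a potassium channel subunit gene, read 57.8%, 61.8% and 62.3% in clones 1, 2 and 3, 43.9% in the 3-week culture and 4.90% in fibroblasts (8 positions, adjusted p 0.0136). Its RNA was listed at 53.9 FPKM in the 3-week culture and 68.0 FPKM in fibroblasts. Cck, the cholecystokinin gene, read 52.5%, 55.0% and 59.8% in the clones, 34.0% in the 3-week culture and 3.70% in fibroblasts (adjusted p 0.0224). Its RNA read 1993 FPKM in the 3-week culture and 21.9 FPKM in fibroblasts. Col6a5, a collagen VI chain gene, read 60.4%, 61.8% and 66.6% in the clones, 36.4% in the 3-week culture and 9.82% in fibroblasts (adjusted p 0.0354). Cavin4, a caveola component gene of muscle, read 59.6%, 66.1% and 63.5% in the clones, 57.4% in the 3-week culture and 10.7% in fibroblasts over 4 positions (adjusted p 0.0444). Calml4, a calmodulin-like gene, read 42.7%, 47.9% and 48.2% in the clones, 34.9% in the 3-week culture and 0.996% in fibroblasts (adjusted p 0.0142). These were picked as calls of at least 25 points in the same direction in all 3 clones, so their distance from the fibroblast level follows from the rule. Placement of such CpG-poor windows was less certain: with promoters placed over the whole genome only, 1 was called higher.

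Promoters called lower or higher on autosomes had fewer CpG sites than most. The median number in the 300 bases was 15 in the 91 autosomal promoters called lower, 9.5 in the 14 called higher and 25 in all 9612, and the median GC content was 60%, 56.5% and 65%. The motif CACGTG, an E-box that reads the same on both strands, was found in 11 of the 91 (12.1%), 3 of the 14 (21.4%) and 10.6% of all. The motif TCCCGC, searched on both strands and known as a core of E2F sites, was in 28.6% of the 91, 14.3% of the 14 and 42.8% of all. The E-box letters occur in the printed stretches of Mael, Ddx4, Kcne4 and Kdm6a. Both motifs were chosen with the members known, and a match shows the letters only.

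Imprinted genes are expressed from 1 parental copy, and the methylation that differs between the copies lies at control regions, which some of their promoters overlap. Of 34 listed genes 15 were measured, 2 were called lower (2.41% of all promoters were) and 0 higher (0.146% of all were), and 8 were under 10% in all 4 libraries. In the wider window 3 of 16 were called lower, beside 3.84% of all such windows, the third being Mcts2, at 18.9%, 12.5% and 16.6% in the clones and 44.2% in fibroblasts (adjusted p 0.00509). Igf2r, the growth factor receptor gene, read 3.19%, 2.95% and 3.57% in clones 1, 2 and 3, 8.50% in the 3-week culture and 31.4% in fibroblasts (34 positions, adjusted p 0.0117). Mkrn3, a paternally expressed gene, read 0.119%, 0.440% and 0.0475% in the clones, 5.91% in the 3-week culture and 28.2% in fibroblasts (adjusted p 0.0132). In both genes all 3 clones were near 0. Meg3, the maternally expressed noncoding RNA gene of the Dlk1-Dio3 region, split the clones in the 300-base window: 58.6% and 62.6% in clones 1 and 2, 5.45% in clone 3 and 65.4% in fibroblasts (4 positions, adjusted p 0.794). Over the 17 positions of its wider window the clones were closer together, at 63.5%, 64.2% and 50.6%, and the fibroblasts read 51.8%, a difference of 7.63 points (adjusted p 0.524), opposite in sign to the -23.1 points of the 300 bases. Plagl1 and Zrsr1 stayed intermediate, at 16.1% to 27.2% and 24.7% to 34.9% in the clones and 40.2% and 45.8% in fibroblasts, and did not pass the test.

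Of 52 Hox genes, which set position along the body axis, 11 were measured, 1 was called lower (2.41% of all promoters were) and 8 were under 10% in all 4 libraries. In the wider window 3 of 13 were called lower, beside 3.84% of all such windows: Hoxa5, Hoxa6 and Hoxc4. Hoxa5 read 6.45%, 1.77% and 7.62% in the clones, 8.92% in the 3-week culture and 53.8% in fibroblasts (adjusted p 0.0427), and limma on log2 ratios gave an adjusted p of 0.0581. Hoxa6 read 13.4%, 13.5% and 13.7% in the clones and 43.4% in fibroblasts in the wider window (adjusted p 0.000462). Hoxc4, measured there alone, read 4.59%, 1.42% and 5.47% in the clones and 58.3% in fibroblasts (adjusted p 0.000228). Of 65 other developmental transcription factor genes 27 were measured and 23 were under 10% in all 4 libraries. Tbx1, a T-box gene of the pharynx, was the 1 called, with 14.2%, 12.9% and 16.8% in the clones, 16.3% in the 3-week culture and 50.4% in fibroblasts (adjusted p 0.0330), a share of the list near the 2.41% of all promoters called lower.

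The remaining lists held few calls, and over all promoters 2.41% were called lower and 0.146% higher. At such shares lists of this size would hold few or 0 calls, so their counts say little about these genes. Levels under 10% were also usual, at 91.8% of all promoters in fibroblasts. Of 46 fibroblast and mesenchymal genes 12 were measured, 11 of them were under 10% in all 4 libraries, and 0 were called by the quasi-binomial model in either window. Col1a1 and Thy1 were not placed. Of 23 genes of the DNA methylation machinery 15 were measured, all under 10% in the clones and fibroblasts, and 0 were called. Of 29 epithelial genes 10 were measured and 0 were called, although Epcam, a cell adhesion gene, had 3.38%, 0% and 0.658% in the clones and 27.4% in fibroblasts (adjusted p 0.0843). The wider window held the same 4 positions of Epcam, and there it was called lower (adjusted p 0.0286), 1 of 13 epithelial genes beside 3.84% of all such windows. Of 14 muscle genes 3 were measured and 0 called, and Acta1, skeletal actin, had 43.5%, 39.98% and 43.7% in the clones and 21.4% in fibroblasts (adjusted p 0.0963). In the wider window Acta1 differed by 12.9 points (adjusted p 0.149), the median over the 3 genes was -1.24 points, and 0 were called. Of 21 housekeeping genes 10 were measured and 1 was called lower (2.41% of all promoters were), the X-linked Hprt, and 8 were under 10% in all 4 libraries. The wider window called 2 of 14 lower (3.84% of all such windows were), Hprt and Pgk1, also on X. Gapdh was measured in the wider window only, at 0%, 0.0757% and 0.869% in the clones and 0.0694% in fibroblasts. The 16 macrophage and blood genes, the 12 keratinocyte genes and H19 were not placed.

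The X chromosome differed most. Of its tiles 31.7% were called lower in the clones and 0.271% higher, against 16.5% and 4.17% on the autosomes, where single chromosomes ranged from 13.2% to 19.4% called lower. Levels under 10% held 55.5%, 54.8% and 53.9% of X positions in clones 1, 2 and 3 and 9.98% in fibroblasts, whereas on the autosomes the shares were 56.2% to 57.4% in the clones and 55.9% in fibroblasts. X tiles with 30 or more positions averaged 1.97%, 2.32% and 2.44% in the clones and 32.1% in fibroblasts, and 82.0% of these 222 tiles were called lower. Sparse X tiles that were at 80% or more in fibroblasts behaved more like autosomal ones, at 66.3%, 69.0% and 69.6% in the clones.

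The X difference was clearest at promoters. Of 241 X promoters 141 (58.5%) were called lower and 0 higher, against 91 of 9371 (0.971%) and 14 on the autosomes. On X 235 of 241 lay below the fibroblasts in each clone. Of the autosomal promoters 94.1% were under 10% in fibroblasts and could not fall by 25 points, against 4.98% on X. Among those at 15% to under 60% in fibroblasts, 136 of 213 were called lower on X and 34 of 236 on autosomes. At 60% or more, 5 of 13 were called lower on X and 57 of 260 on autosomes. In the wider window 204 of 268 X promoters were called lower, and 198 to 203 without each clone in turn. Their median was 0.188%, 0.216% and 0.244% in clones 1, 2 and 3, 6.73% in the 3-week culture over the 221 measured there, and 31.3% in fibroblasts. The fibroblast values were narrow, with quartiles of 25.4% and 37.6%, and 213 of the 241 lay from 15% to under 60%. Of those 213, 197 averaged under 5% in the clones. On autosomes the median promoter was 0.161%, 0.149% and 0.166% in the clones and 0.115% in fibroblasts. Median X and autosomal promoter levels were thus alike in the clones and far apart in fibroblasts. Hprt, a purine salvage enzyme gene, read 0.206%, 0.461% and 0.222% in the clones, 7.86% in the 3-week culture and 32.7% in fibroblasts (37 positions, adjusted p 0.0103).

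**Figure D5:**
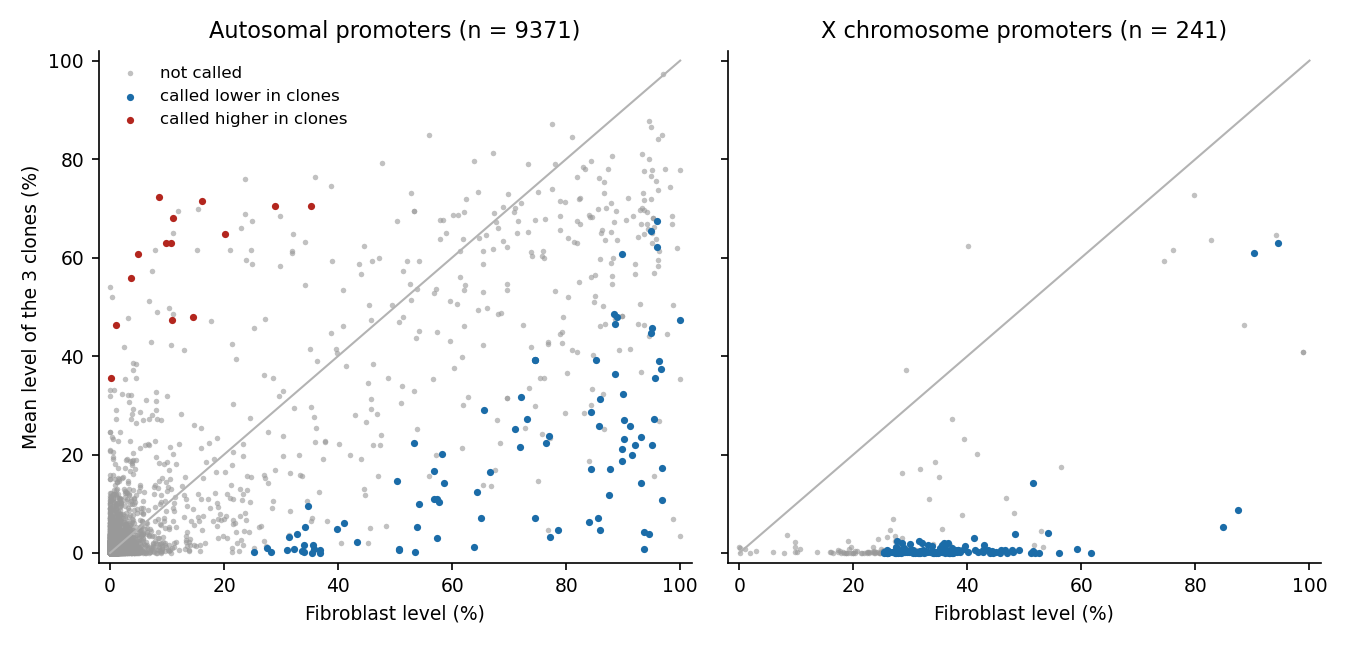
Mean level of the 3 clones (y axis, %) against the fibroblast level (x axis, %) for each promoter, autosomal on the left and X on the right, with called promoters in colour and the diagonal marking equal levels. X promoters lie near 0 in the clones and mostly between 15% and 60% in fibroblasts.

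In female cells 1 X copy is inactive and its promoters are methylated except at genes that escape inactivation. The labels do not give the sex of the animals. Xist, the noncoding RNA of the inactive X, read 149 FPKM in the 3-week culture and 456 FPKM in fibroblasts. The X chromosome took 2.15%, 2.21% and 2.20% of the reads at shared positions in clones 1, 2 and 3 and 2.19% in fibroblasts, so X took much the same share of reads in all 4 libraries. Of the 241 X promoters 12 were under 10% in fibroblasts. Known escape genes are among them, named after their values were seen and taken from those 12, so their low fibroblast level is no separate result. Kdm6a, a histone demethylase gene, read 0% in each clone and 0.172% in fibroblasts. Ddx3x, an RNA helicase gene, read 0% in each clone and 1.85% in fibroblasts. Jpx, a noncoding RNA gene that acts on Xist, read 0.411%, 1.36% and 1.08% in the clones and 0.0969% in fibroblasts, and Pbdc1 read 0.266%, 0.345% and 0.0515% in the clones and 5.92% in fibroblasts. Mid1, also among the 12, read 2.07%, 0.0840% and 1.73% in the clones and 9.72% in fibroblasts. In the wider window Mid1 read 1.23%, 0.654% and 1.00% in the clones and 20.3% in fibroblasts. That difference of -19.3 points (adjusted p 0.000131) fell short of the 25 points of a call. The rest of the 12 are not described here.

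A few X promoters kept methylation in the clones. Of the 13 at 60% or more in fibroblasts 5 were called lower, and 8 of the 241 averaged 50% or more in the clones. Ccnb3, a meiotic cyclin gene, was called lower but remained at 61.0%, 65.7% and 62.2% in the clones and 94.5% in fibroblasts (adjusted p 0.0370). Taf7l, a testis transcription factor gene, read 81.8%, 76.8% and 35.4% in the clones and 94.2% in fibroblasts (5 positions, adjusted p 0.652). In its wider window of 24 positions the clones were closer together and Taf7l was called lower, at 64.5%, 68.9% and 67.3% in the clones and 94.5% in fibroblasts (adjusted p 0.00245). Magea2, a cancer-testis gene, read 56.8%, 68.9% and 65.2% in the clones and 82.8% in fibroblasts (adjusted p 0.239). These genes were named after their values were seen.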

How the data were processed

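Each row of the RRBS tables deposited by the authors is 1 CpG cytosine of 1 strand, with its coverage as a read count of at least 10 and the percent of reads methylated and converted. The submitters' processing notes name Bismark, methylKit, TopHat, Cufflinks and the build mm9, without versions or steps. FPKM per gene, as deposited by the authors, keeps no read depth, so RNA values are set side by side with no test.

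Coverage times percent, rounded, gave the methylated and unmethylated reads. Positions past the 99.9th coverage percentile of any of the 4 libraries were dropped. Tiles of 1000 bp with 3 or more shared positions, on autosomes and X, pooled the reads. Each tile and promoter was tested with a quasi-binomial model whose dispersion among the 3 clones was moderated by limma 3.58.1 (R 4.3.3), using a trend on binomial information and a floor of 1. Counts and levels used pandas 2.3.3 in Python 3.11.15. The model was tested on simulated data in which the fibroblast library was drawn with the same dispersion as the clones. The assumption that the fibroblast library varies as a clone does was therefore not tested. No mm9 genome was used. RefSeq promoter sequences were placed on the files' own positions by the spacing of their CpG sites, with at least 8 matched and no unmatched sites over the whole genome (10574 sequences, all on the annotated chromosome), or at least 5 between placed neighbours (2304 sequences). The authors' build coordinates were never converted. Promoters of neighbouring genes can overlap.

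Tiles named have at least 10 positions and at least 25 points in each clone, the 10 largest each way, leaving out chromosome 18. Named stretches are the 5 longest, ties going to more called tiles and then to the larger difference. Promoters named by rule are up to 4 called each way per gene list, the 10 largest each way over all promoters, and fixed genes (Pou5f1, Nanog, Sox2, Esrrb, Col1a1, Thy1, Dazl, H19, Gapdh). Other promoters described were named outside this rule with their values known, among them Meg3, Plagl1, Zrsr1, Epcam, Acta1, Rpl10l and Tdrkh. Members, lists and tests were chosen with earlier results of these data known. Alternatives tried were other position and coverage minimums, tile widths, moderation, limma, Fisher's exact test, promoter windows and leaving out each clone.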

Additional observations from a re-analysis of the deposited data

How the results depend on the processing

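No paired analysis was possible because the fibroblasts have 1 library. With at least 5 positions per tile, 13043 tiles were called lower and 2660 higher, fewer tiles being tested. The tile counts stayed within 1.5 times under every other alternative run, and without each clone in turn they were 16736 to 20299 lower and 3569 to 4665 higher. The difference in mean level was -7.64 points over positions and -6.39 points over reads, and -11.2 to -10.1 points without each clone. Promoters called lower numbered 415 with wider windows. Promoters called higher numbered 53 with wider windows, 1 when placed over the whole genome only, 49 with limma on log2 ratios and 50 with Fisher's test in all 3 clones. Germ line promoters called lower numbered 13 with wider windows, 2 without a trend, and 9 with limma and with Fisher's test. Without any 1 clone, the 300-base windows gave 0 calls lower, higher, on X and in the germ line list, whereas the wider windows kept counts within 1.5 times of their own. With 2 clones 1 degree of freedom is left among them. The 20 named tiles kept their calls in all 240 refits of them. The 30 named promoters that were called lost their calls in all 90 refits without a clone, and otherwise kept them in 176 and lost them in 18. Dazl, which was not called, was called in 3 of its refits, and no direction of a promoter named by rule turned. Meg3, named from a list and not called, read -23.1 points in the 300 bases and 7.63 points in its wider window. Other causes were not tested. Coverage limits low promoters: a value of 0 allowed a level of up to 2.5% at Epcam, with 120 reads, and up to 0.867% at Pou5f1, with 346 reads.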
